A study of Rattus norvegicus with 3 samples.

Results

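The genes described here are the CD antigens, interleukins, chemokines, tumour necrosis factor (TNF) family members, interferon receptors and their relatives that a rat microarray measured from crypt to villus top in the jejunum. The rule went by symbol: it took every probe whose platform gene symbol starts as a numbered CD antigen, an interleukin (Il), a chemokine or chemokine receptor (Ccl, Cxcl, Ccr, Cxcr), Tnf or Ifn, leaving out Cd74, Cd3g and Tnfrsf17. This gave 50 probes of 47 genes, out of 6653 probes, of which 4820 carried a symbol and stood for 4379 genes. By role they were 18 CD antigens, 10 chemokines, 1 chemokine receptor, 5 interleukins or interleukin-binding proteins, 3 interleukin receptors, 6 genes of the TNF family and 4 interferon receptor chains. From general knowledge of where each is made, 16 were placed with the intestinal epithelium (epithelial members) and 14 with blood-derived cells (immune members). Another 14 were placed with many cell types, stroma or endothelium (broad members), and 3 were on none of these lists. Intestinal epithelial cells are known to make the epithelial members, though not these cells alone, so values of these members need not come from epithelium.

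The tissue came from male Sprague-Dawley rats aged 6 weeks, with no treatment or genotype named, and all samples share these traits. Frozen jejunum was cut across the villi in a cryostat into sections of 10 µm, and 10 sections made up a fraction of 100 µm. Of 7 fractions counted from the villus top, fraction 1 was the top villus sample, fraction 4 the middle villus sample and fraction 6 the crypt sample. Each part had 1 sample, the number of animals behind it is not stated, and no difference below has a replicate check or a p-value. A fraction is a layer of whole tissue, so it holds epithelium, the lymphocytes within it, and the connective tissue core with its vessels, muscle strands and immune cells.

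Cytokines and chemokines are secreted signals that bind receptors on neighbouring or migrating cells, and chemokines set up gradients along which leukocytes move. In the small intestine the epithelium itself makes chemokines that recruit lymphocytes, carries receptors for TNF, interferons and interleukins, and bears CD antigens, a numbering of surface proteins that says nothing of their function. Blood-derived cells lie beneath and between the epithelial cells, where lymphocytes lodged within the epithelium are mostly T cells.

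Values are log2 intensities as deposited. The number of arrays limits the precision, and the one error that could be estimated is how far probes for 1 gene disagree. Pooled over genes, the SD of such log2 differences came to 0.914 in the comparison of top villus and crypt (206 genes), 0.901 in that of middle villus and crypt (222 genes) and 1.047 between the villus parts (247 genes). Outside 2 such SDs lie differences of 3.55-fold, 3.49-fold and 4.27-fold for a gene with 1 probe, which is the case for all members but Cd47 and Il1b. A value in the lowest 25% of its column was treated as dim, which means below 6.05 in crypt, 4.15 in the middle villus and 5.15 at the top. A difference with 1 dim part is a bound, written "at least", and a pair dim in both parts was not compared. A call, higher or lower, needed a difference of 2-fold, or 1 on the log2 scale. The labels were checked against markers. All 6 genes of dividing crypt cells on the table were lower in both villus parts than in the crypt, and their summed linear signal was 6990 in crypt, 241 in the middle villus and 184 at the top. The 9 enterocyte genes summed to 12400, 159000 and 183000 in the same order. In the middle villus all 9 were higher against the crypt, and 7 were higher and 1, Si, lower at the top.

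By the level of each column, more member probes were dim in the crypt than in either villus part. Of the 50 probes 20 were measured in all 3 parts, 20 were dim in 1 part, 7 in 2 parts and 3 in all 3. Dim probes numbered 20 in crypt, 9 in the middle villus and 14 at the top, against 1663, 1663 and 1660 of all 6653 probes. The level is itself highest in the crypt (6.05, against 4.15 and 5.15), so these counts do not compare the parts at 1 intensity. The 3 genes dim throughout were Ifnar1, a chain of the type I interferon receptor (4.98, 2.72 and 4.55 from crypt to top), Il18bp, a secreted inhibitor of Il18 (-1.36, 1.40 and 4.15), and Tnfaip8l2, a regulator of immune signalling (-1.57, 3.48 and 4.19). Nothing on where these 3 are high or low can be read from such values.

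In the comparison of the top villus with the crypt, 42 members were compared, of which 16 were higher, 10 lower and 16 inside the limit. Calls in either direction made up 61.9% of the members and 63.4% of all 3932 named genes compared, so their share was near the background. The split ran the other way from that of all genes: 38.1% of members were higher against 23.9% of all genes, and 23.8% were lower against 39.5%. The median log2 difference was 0.42 for members and -0.39 for all genes. Of the 26 called members 10 were measured in both parts and 16 were bounds. The 8 measured in both parts that passed 2 SDs were Cd55, Cd82, Tnfrsf1a, Cd151, Ifngr2, Ccl6 and Cd36, all higher at the top, and Cxcl12, lower.

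In the middle villus against the crypt, 15 of 42 members were higher and 9 lower, 57.1% in all, against 48.5% of the 3825 genes compared. Of these genes 19.1% were higher and 29.5% lower, where the members gave 35.7% and 21.4%. Quantile normalization brought the members to 21 higher and 6 lower and all genes to 24.5% on each side. Only Cd3d passed 2 SDs among members measured in both of these parts. Its crypt value of 6.27 lay just above the level for dim values there, 6.05. In the top against the middle villus 13 of 41 members were higher and 9 lower, 53.7% in all, against 56.9% of 3768 genes, with 29.5% of all genes higher and 27.4% lower. The members past 2 SDs and measured in both parts were Tnfrsf1b, Cd55, Ccl20 and Tnfrsf1a, higher at the top, and Ccr10, lower. The comparisons share samples pairwise, so their values for a member are given side by side and not counted as separate evidence.

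**Figure D1:**
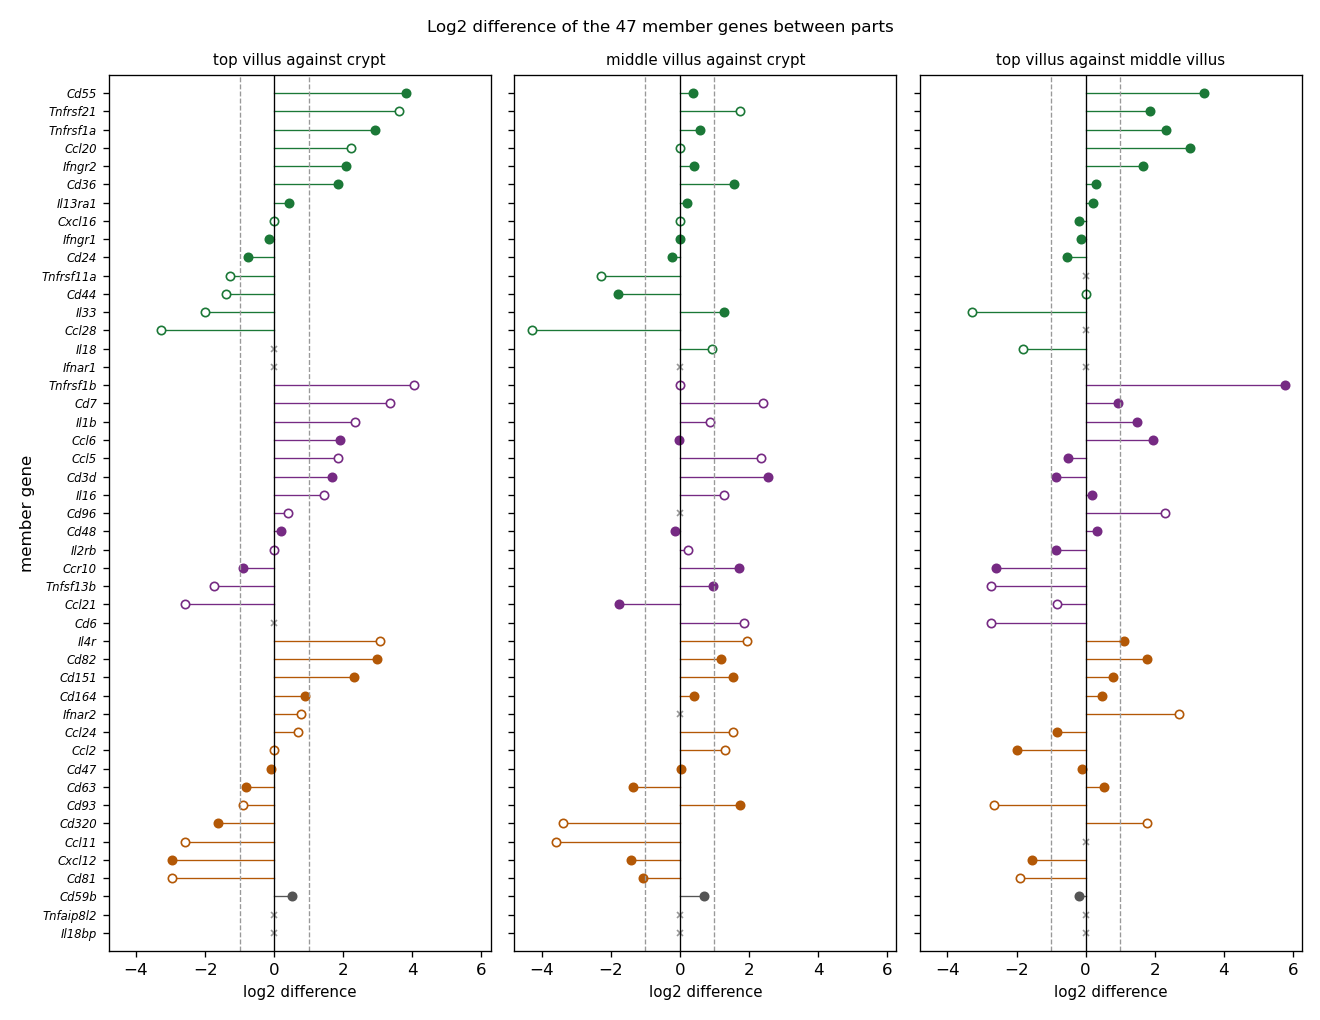
Log2 difference (x axis) of each of the 47 member genes (y axis) in the 3 comparisons, 1 sample per part. Filled points were measured in both parts, open points are bounds, crosses were not compared, and dashed lines mark 2-fold; epithelial members are green, immune purple, broad orange and unlisted grey. Tnfrsf1b at 5.76 in top against middle villus is the point farthest to the right.

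Among the epithelial members 6 of 14 compared were higher at the top than in the crypt and 4 lower, with a median log2 difference of 0.21, against 23.9% and 39.5% of all genes. In the middle villus 3 of 15 were higher than in crypt and 3 lower (19.1% and 29.5% of all genes). Between top and middle 5 of 13 were higher and 2 lower (29.5% and 27.4% of all genes), both with a median of 0.21. For top against crypt the higher genes were Cd55, Tnfrsf21, Tnfrsf1a, Ccl20, Ifngr2 and Cd36, and the lower ones Ccl28, Il33, Cd44 and Tnfrsf11a. In these bulk fractions fewer cells of a type and less RNA per cell cannot be told apart. The enterocyte genes given above also differed along the column, and their part in these differences was not tested.

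Of the 3 epithelial chemokines, Ccl20 was highest at the top and Ccl28 in the crypt, and Cxcl16 had no call. Ccl20, which attracts lymphocytes and dendritic cells bearing Ccr6, had log2 values of -4.30 in crypt, 5.25 in the middle villus and 8.27 at the top. It was dim in the crypt only, and at least 4.67-fold higher at the top. Between the villus parts it was measured in both and 8.15-fold higher at the top, whereas the middle villus value lay under the crypt's level for dim values, so that no size can be given for that step. Ccl28, a mucosal chemokine that binds Ccr10 and attracts antibody-secreting cells, showed the reverse. Its values were 8.43 in crypt, -1.94 in the middle villus and 2.52 at the top. The middle villus was at least 19.5-fold lower and the top at least 9.76-fold lower than the crypt, both being dim. These sizes depend on the level for dim values of each column, and quantile normalization gave a log2 difference of -3.31 for both. Cxcl16, a membrane-bound chemokine that binds Cxcr6, stayed close to the levels for dim values, with 4.96, 5.98 and 5.78, and no call was made for it as deposited. Quantile normalization gave a log2 difference of 1.24 between middle villus and crypt.

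The Ccl20 promoter is shown because this gene had the widest span of deposited values among the epithelial members. That span rests on its dim crypt value. The gene is also a known target of NF-kB, the factor that carries TNF and interleukin signals to the genome. Its promoter lies at chr9:91836909-91837158, plus strand, of GRCr8, from RefSeq, and spans the 250 bases before the start of the gene. Capitals mark matches to a loose form of the NF-kB motif, GGG and CC with any 5 bases between, on either strand. This loose motif was found in 62.5% of the 3887 promoters of genes on the array, so a match here or in the promoters below is common. The part of such matches in the values was not tested.
Ccl20: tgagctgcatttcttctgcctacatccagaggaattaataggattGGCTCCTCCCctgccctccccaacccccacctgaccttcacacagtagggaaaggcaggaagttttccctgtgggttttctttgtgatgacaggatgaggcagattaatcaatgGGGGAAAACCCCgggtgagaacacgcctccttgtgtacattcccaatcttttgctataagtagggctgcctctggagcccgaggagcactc
Counted from the gene's start, 3 overlapping matches run from -91 to -80, and a separate match from -205 to -196.

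Receptors of the TNF family differed between members. Tnfrsf1a, the TNF receptor with a death domain that most cells carry, had log2 values of 8.99 in crypt, 9.57 in the middle villus and 11.89 at the top. It was 7.51-fold higher at the top than in the crypt and 5.01-fold higher than in the middle villus, all measured, with crypt and middle apart by 0.58 on the log2 scale, inside the limit. Tnfrsf21, a death receptor also called DR6, had 4.15, 7.79 and 9.66. It was dim in the crypt, at least 12.2-fold higher at the top, at least 3.35-fold higher in the middle villus, and 3.64-fold higher at the top than in the middle. Tnfrsf11a (RANK), the receptor for the ligand Tnfsf11, went the other way with 6.44, 3.53 and 1.28. At the top it was at least 2.45-fold lower and at least 4.90-fold lower in the middle villus than the crypt. Its crypt value was just above the level for dim values, and neither call stood with a common level of log2 6 (-0.44 for both) or under quantile normalization (-0.64 for both).

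The interferon gamma receptor is built from a ligand-binding chain, Ifngr1, and a chain needed for signalling, Ifngr2. Ifngr1 was level along the column, at 10.70, 10.70 and 10.56. Ifngr2 had 10.43 in crypt, 10.85 in the middle villus and 12.51 at the top, 4.23-fold higher at the top than in the crypt and 3.16-fold higher than in the middle. Their log2 differences between top and crypt were -0.14 and 2.08, with a pooled probe SD of 0.914. Il13ra1, which pairs with Il4r to bind IL4 and IL13, was also level, at 10.50, 10.72 and 10.93. The promoters of the pair of interferon gamma receptor chains are shown because their genes behaved differently in the same samples. They lie at chr1:16152660-16152909, plus strand (Ifngr1), and chr11:44265453-44265702, plus strand (Ifngr2), of GRCr8, from RefSeq, each the 250 bases before the start, with matches to the loose NF-kB motif in capitals.
Ifngr1: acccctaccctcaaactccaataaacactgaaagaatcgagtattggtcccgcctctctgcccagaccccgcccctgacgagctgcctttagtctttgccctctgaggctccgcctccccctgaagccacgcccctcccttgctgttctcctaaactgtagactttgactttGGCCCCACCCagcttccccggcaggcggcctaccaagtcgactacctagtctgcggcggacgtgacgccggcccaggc
Ifngr2: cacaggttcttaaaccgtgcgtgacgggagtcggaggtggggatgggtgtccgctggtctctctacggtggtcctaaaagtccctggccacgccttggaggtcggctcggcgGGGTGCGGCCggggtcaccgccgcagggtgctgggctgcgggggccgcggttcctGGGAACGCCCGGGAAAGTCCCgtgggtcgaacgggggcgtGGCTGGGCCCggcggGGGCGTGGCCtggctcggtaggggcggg
Ifngr2 was the only one of 36 members with a promoter in that set to have a match to the full kappa B motif, on the minus strand from -72 to -63. Of 33469 rat promoters of the same length 32 (0.0956%) hold it, and 7 of the 3887 (0.18%) for genes on the array. Ifngr2 had 6 matches to the loose motif, one of them that same site, and Ifngr1 had 1, from -78 to -69. The part of these matches in the values of either chain was not tested.

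The epithelial cytokines had their highest values in the middle villus. Il33, an alarm signal kept in the nucleus and released from damaged cells, had log2 values of 7.16 in crypt, 8.43 in the middle villus and 0.05 at the top. It was 2.42-fold higher in the middle villus than the crypt. At the top it was dim, at least 4.03-fold lower than in the crypt and at least 9.75-fold lower than in the middle. Il18, which inflammasomes activate, had 5.74, 6.97 and 2.50, and was at least 3.54-fold lower at the top than in the middle. That call was lost with a common level of log2 6 (-0.97).

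Of the epithelial CD antigens, Cd55 had the highest difference between top and crypt among members measured in both parts. Cd55, which protects cells from complement, had log2 values of 8.42 in crypt, 8.79 in the middle villus and 12.22 at the top. It was 14.0-fold higher at the top than in the crypt and 10.8-fold higher than in the middle, while crypt and middle were inside the limit at 1.30-fold. Cd36, a receptor that takes up fatty acids, was higher in both villus parts, with 8.95, 10.51 and 10.80, or 2.94-fold in the middle and 3.60-fold at the top. Cd24, a surface glycoprotein abundant on crypt cells, was level at 12.09, 11.87 and 11.33. Cd44, a hyaluronan receptor known as a Wnt target in crypts, had 6.55, 4.76 and 4.13. It was 3.46-fold lower in the middle villus than the crypt and at least 2.64-fold lower at the top, but all its values lay close to the levels for dim values. Neither call stood with a common level of log2 6 (-0.55 for both) or under quantile normalization (-0.39 in the middle and -0.81 at the top).

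The Cd55 promoter is shown because, among members measured in both parts, this gene had the highest difference between top and crypt. It lies at chr13:44438102-44438351, minus strand, of GRCr8, from RefSeq, and has 2 matches to the loose NF-kB motif, in capitals, from -76 to -67 and from -57 to -48.
Cd55: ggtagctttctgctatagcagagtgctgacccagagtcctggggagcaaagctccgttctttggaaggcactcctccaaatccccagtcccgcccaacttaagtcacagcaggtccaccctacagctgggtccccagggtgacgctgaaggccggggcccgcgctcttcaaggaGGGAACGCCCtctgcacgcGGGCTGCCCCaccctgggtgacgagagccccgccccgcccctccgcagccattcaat

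**Figure D2:**
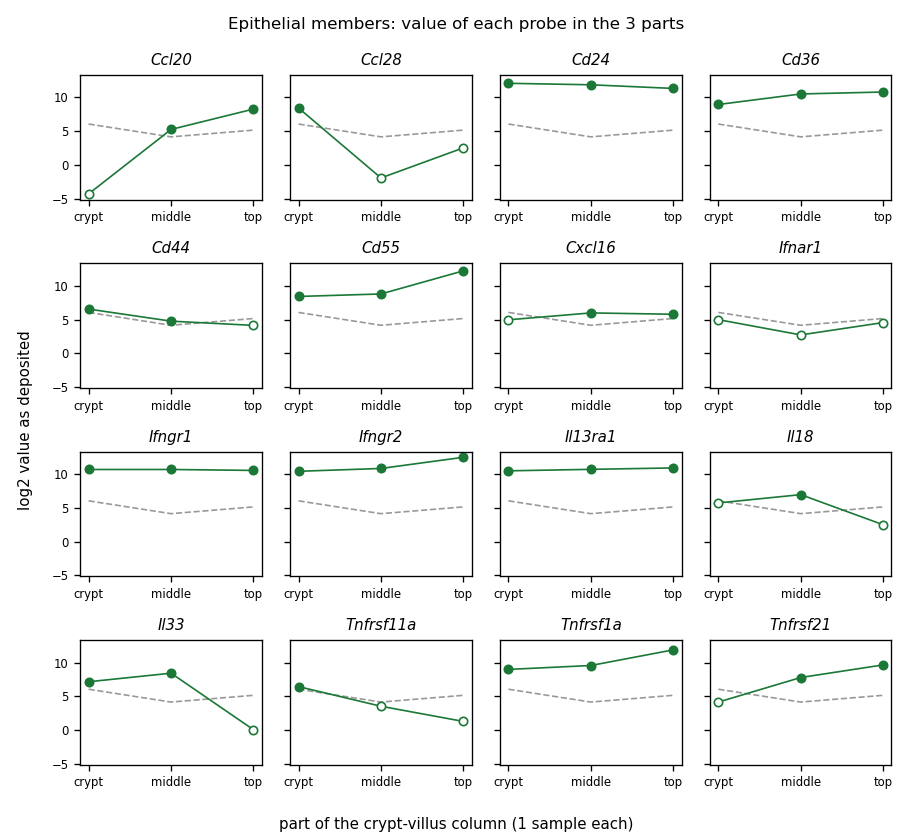
Deposited log2 value (y axis) of each of the 16 epithelial members in crypt, middle and top villus (x axis), 1 probe and 1 sample each. The dashed line joins the levels for dim values and open points lie under it; Cd55, Tnfrsf1a and Ifngr2 are flat from crypt to middle and higher at the top, while Il33 and Il18 peak in the middle.

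Among the immune members 7 of 13 compared were higher at the top than in the crypt and 2 lower, with a median log2 difference of 1.45 (2.26 under quantile normalization), where 23.9% and 39.5% of all genes were. In the middle villus 6 of 13 were higher than in the crypt and 1 lower (median 0.97, or 1.71 under quantile normalization), against 19.1% and 29.5% of all genes. Between top and middle villus 4 of 14 were higher and 3 lower (median -0.17, and 0.08 under quantile normalization), against 29.5% and 27.4%. Among probes measured in all 3 parts the medians for top against crypt stood in the other order, 0.94 for 4 immune and 1.85 for 7 epithelial members. Of the 15 immune probes 9 were dim in the crypt and 1 in the middle villus. So 9 of the 13 differences between top and crypt are bounds. Leukocyte markers, of which 13 of 28 were on the table, differed along the column too. Against the crypt 7 of 13 were higher and 3 lower at the top, and 8 of 12 were higher and 1 lower in the middle. The 1 lower in the middle was Lyz2 (log2 difference -1.21), and in whole-tissue fractions its values need not come from leukocytes alone. Their 15 probes summed to a linear signal of 19000 in crypt, 23300 in the middle villus and 14800 at the top. The median of their log2 values was 7.42, 8.82 and 8.76. Such sums rest mainly on the brightest probes and do not measure leukocyte number. The brightest was a probe of Lyz2 in crypt (log2 13.05), Jchain in the middle villus (13.64) and a probe of Laptm5 at the top (11.95). Ptprc, the antigen common to all leukocytes, had log2 values of 4.41, 7.55 and 8.66. Ptprc, Gzmb and Lck were dim in the crypt, Lck also in the middle villus and Cpa3 at the top. Cd3d stands on both lists. The part of leukocyte number in the differences of immune members was not tested.

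Of the genes of T cells and their relatives, Cd3d, Cd7 and Cd6 were called higher in the middle villus against the crypt, and Cd3d and Cd7 at the top. Cd3d, a chain of the T cell receptor complex, had 6.27 in crypt, 8.82 in the middle villus and 7.95 at the top, which is 5.83-fold higher in the middle and 3.20-fold higher at the top than in the crypt. Cd7, a receptor of T and natural killer cells, had 3.38, 8.44 and 9.39, at least 5.26-fold higher in the middle and at least 10.1-fold higher at the top. Cd96, a receptor of the same cells, was measured at the top alone, with -4.97, 2.16 and 6.46. It was at least 4.97-fold higher at the top than in the middle villus, a call lost with a common level of log2 6 (0.46). Cd6, a T cell coreceptor, was measured only in the middle villus, with 4.21, 7.89 and 2.55. It was at least 3.59-fold higher there than in the crypt, and at the top at least 6.71-fold lower than in the middle. Il2rb, the receptor chain shared by IL2 and IL15, had 4.76, 6.27 and 5.41 and no call as deposited, but passed 2-fold under quantile normalization, at 1.44 between middle villus and crypt and -1.14 between the top and the middle. Cd48, a ligand on most leukocytes, was level at 8.41, 8.27 and 8.61.

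Immune cytokines and chemokines differed in where they were high. Il1b, an inflammatory cytokine of myeloid cells, had 2 probes. One had 5.73 in crypt, 7.33 in the middle villus and 9.25 at the top, the other 3.21, 6.48 and 7.53. The probes had the same order, and their mean was at least 5.07-fold higher at the top than in the crypt and 2.80-fold higher than in the middle. Ccl6, a chemokine of rodent myeloid cells, was level from crypt to middle and higher at the top, with 7.20, 7.16 and 9.10, or 3.73-fold above the crypt and 3.83-fold above the middle. Ccl5, made by T and natural killer cells, had 4.90, 8.40 and 7.90. Against the crypt it was at least 5.10-fold higher in the middle and at least 3.60-fold higher at the top. Il16, a chemoattractant of CD4+ cells, had 5.10, 7.33 and 7.50, at least 2.43-fold and at least 2.73-fold higher. Ccl21, a ligand of Ccr7 that lymphatic vessels make, was lower along the column with 7.73, 5.97 and 3.18. It was 3.38-fold lower in the middle and at least 5.98-fold lower at the top than in the crypt. Although vessels make it, Ccl21 was counted with the immune members. Against the crypt it is the 1 immune member called lower in the middle villus, and 1 of the 2 called lower at the top.

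The members Ccr10 and Tnfsf13b were lower at the top than in the middle villus, as were 27.4% of all genes compared. Ccr10, the receptor for Ccl28, had 8.09 in crypt, 9.80 in the middle villus and 7.20 at the top, 3.27-fold higher in the middle than in the crypt and 6.06-fold lower at the top than in the middle. Tnfsf13b (BAFF), a survival factor of B cells, had 6.90, 7.87 and 2.67. The top was at least 6.61-fold lower than the middle and at least 3.37-fold lower than in the crypt, the latter a call lost with a common level of log2 6 (-0.90). The leukocyte marker Jchain, which joins secreted immunoglobulins and marks plasma cells, had 12.46, 13.64 and 5.62, and its part in these values was not tested.

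Tnfrsf1b, the TNF receptor without a death domain, had log2 values of 3.13 in crypt, 4.35 in the middle villus and 10.11 at the top. It was high at the top alone, at least 16.7-fold above the crypt and 54.1-fold above the middle villus. The middle value lay just over the level for dim values there, so the second size depends on that level, and with a common level of log2 6 the log2 difference was 4.11 instead of 5.76. Its promoter, shown because this gene had the widest difference of the set, has a match to the interferon response motif, GAAA repeated after any 2 bases, on the minus strand from -10 to -1. It lies at chr5:162387412-162387661, minus strand, of GRCr8, from RefSeq. Capitals mark that motif and 3 matches to the loose NF-kB motif.
Tnfrsf1b: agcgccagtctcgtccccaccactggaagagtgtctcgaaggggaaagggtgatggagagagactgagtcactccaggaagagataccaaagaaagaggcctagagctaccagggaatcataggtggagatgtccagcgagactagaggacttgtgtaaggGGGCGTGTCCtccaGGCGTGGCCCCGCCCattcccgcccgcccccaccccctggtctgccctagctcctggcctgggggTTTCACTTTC

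**Figure D3:**
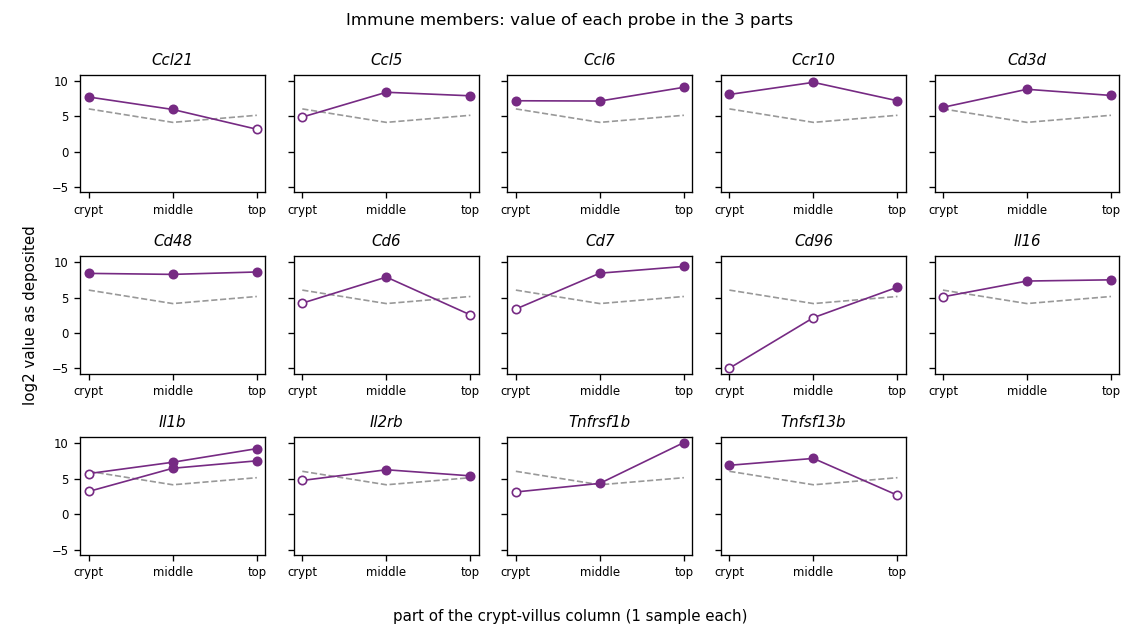
Deposited log2 value (y axis) of the 15 probes of the 14 immune members in crypt, middle and top villus (x axis), 1 sample each. Open points lie under the dashed level for dim values; 9 probes are open in the crypt, and Tnfrsf1b is high at the top alone, at 10.11.

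Of the 14 broad members 3 were higher and 4 lower at the top than in the crypt (median -0.04), against 23.9% and 39.5% of all genes. In the middle villus 6 of 13 were higher and 5 lower, against 19.1% and 29.5%, and between top and middle 4 of 13 were higher and 4 lower, against 29.5% and 27.4%. The tetraspanins, membrane proteins that organise other surface proteins, split. Cd82 had 9.85 in crypt, 11.05 in the middle villus and 12.83 at the top, 7.91-fold higher at the top than in the crypt. Cd151, which binds laminin-binding integrins, had 9.75, 11.28 and 12.07, a log2 difference of 2.32 between top and crypt. Cd81 was the reverse, with 8.11, 7.05 and 2.39, at least 7.82-fold lower at the top, and 2.10-fold lower in the middle, which quantile normalization brought inside the limit (-0.98). Cd63, a tetraspanin of lysosomes, was 2.57-fold lower in the middle than in the crypt (10.88, 9.52 and 10.05) and inside the limit at the top.

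The 4 broad chemokines split, with Cxcl12 and Ccl11 lower in the villus and Ccl24 and Ccl2 higher in its middle against the crypt. Cxcl12, the ligand of Cxcr4, had log2 values of 10.69 in crypt, 9.28 in the middle villus and 7.74 at the top. It was measured in all parts, 2.66-fold lower in the middle and 7.72-fold lower at the top than in the crypt. Ccl11, an eotaxin that draws eosinophils, had 7.72, 4.10 and -0.98, at least 11.9-fold lower in the middle and at least 5.97-fold lower at the top, where the smaller bound follows from the higher level for dim values. Quantile normalization gave a log2 difference of -2.52 for both. Ccl24, an eotaxin of the same receptor, was not placed with it: it had 3.42, 7.58 and 6.74, at least 2.89-fold higher in the middle villus than the crypt. Ccl2, which draws monocytes, was highest in the middle villus, with 6.04, 7.35 and 5.37, and 3.93-fold lower at the top than there. Cd93, a receptor of endothelial cells, had 6.06, 7.80 and 2.96, with the crypt value just above the level for dim values. It was 3.33-fold higher in the middle than in the crypt and at least 6.28-fold lower at the top than in the middle. Markers of muscle, stroma and endothelium, of which 11 of 15 were on the table, summed to 8060, 7910 and 9350. Against the crypt 2 were higher and 1 lower at the top, and none of 9 was called in the middle villus, and their part in the chemokine values was not tested.

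Il4r, the receptor chain for IL4 and IL13, had 4.29 in crypt, 7.99 in the middle villus and 9.10 at the top. Against the crypt it was at least 8.27-fold higher at the top and at least 3.83-fold higher in the middle, and 2.16-fold higher at the top than in the middle. Ifnar2, a chain of the type I interferon receptor, was measured at the top alone (4.92, 2.18 and 6.83). It was at least 6.45-fold higher there than in the middle, a call lost with a common level of log2 6 (0.83). Cd320, a receptor for the cobalamin carrier transcobalamin, was lowest in the middle villus, with 7.54, 2.63 and 5.91. It was at least 10.5-fold lower in the middle and 3.09-fold lower at the top than in the crypt. Quantile normalization brought the step from middle to top inside the limit (0.86 instead of 1.77). It also made the log2 difference between middle villus and crypt -2.31 instead of -3.39. Cd164, a sialomucin, and Cd59b, an inhibitor of complement that stands on no list, were level as deposited, at 10.81, 11.22 and 11.70 and at 6.50, 7.20 and 7.01. Under quantile normalization Cd59b passed 2-fold against the crypt (1.36 in the middle and 1.30 at the top), and Cd164 did so at the top under median scaling (1.13).

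Cd47, a surface signal that restrains phagocytes, was measured by 3 probes that did not move together. Between top and crypt their log2 differences were 1.32, -0.72 and -0.85, so that 1 probe passed 2-fold upwards and the mean was -0.08. Members with 1 probe carry no such check.

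**Figure D4:**
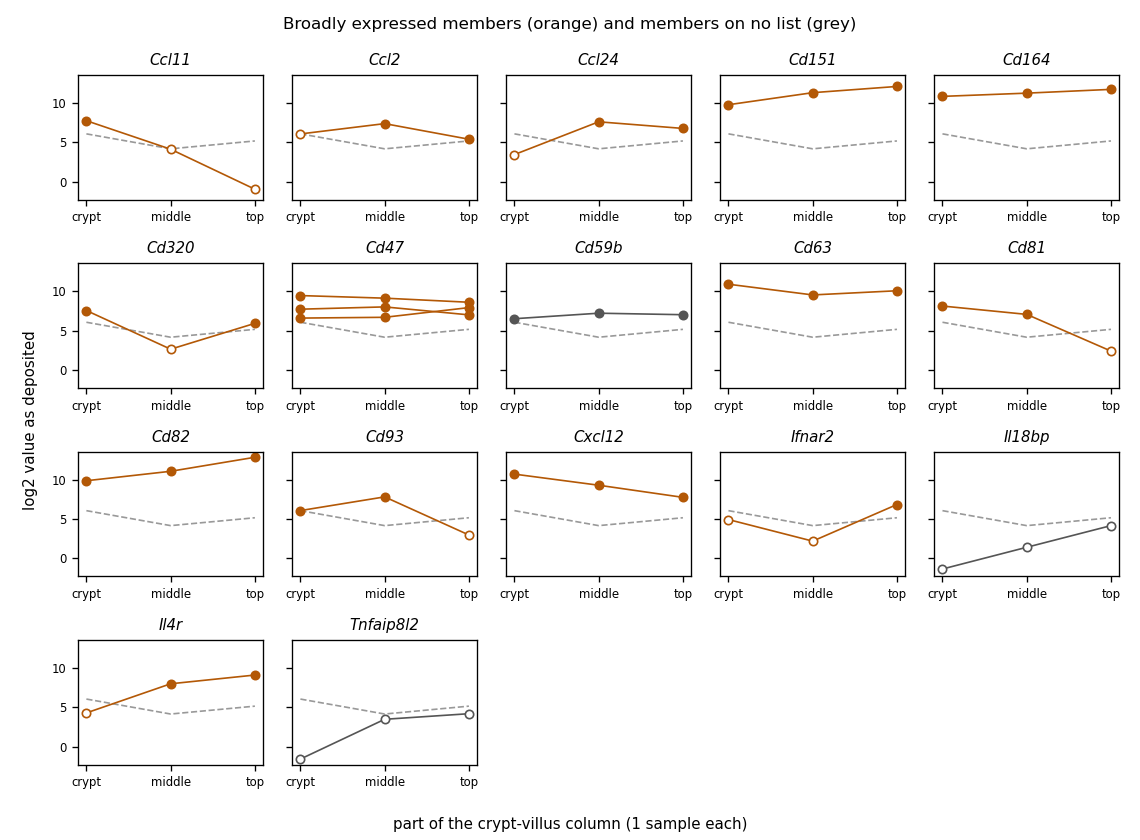
Deposited log2 value (y axis) of the probes of the 14 broad members (orange) and the 3 unlisted members (grey) in crypt, middle and top villus (x axis), 1 sample each. Open points lie under the dashed level for dim values; Cd82 and Cd151 are highest at the top, Cxcl12 and Ccl11 in the crypt, and of the Cd47 probes 1 is higher at the top than in the crypt and 2 are lower.

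Among listed genes that carry cytokine signals inside the cell, most of those compared were higher at the top than in the crypt. This list, like the others, was chosen with earlier results of these data known. Of its 77 signalling genes, which are no members, 28 were on the table. Of the 25 compared at the top against the crypt 18 were higher and 3 lower, or 72.0% and 12.0% against 23.9% and 39.5% of all genes. Their median log2 difference was 1.42, and 10 of the 25 differences were bounds. In the middle villus 7 of 24 were higher than in the crypt and none lower (median 0.17), against 19.1% and 29.5% of all genes. At the top 14 of 26 were higher and 4 lower than in the middle (median 1.09), against 29.5% and 27.4% of all genes. Downstream of the TNF receptors, Tradd, the adaptor of Tnfrsf1a, had 9.90, 10.57 and 12.40 and was 5.68-fold higher at the top than in the crypt. Ripk3, a kinase of necroptosis, had 9.47, 8.92 and 13.37 and was 14.9-fold higher. Nfkbia, the inhibitor of NF-kB and one of its targets, had 9.15, 10.57 and 11.26 and was 4.33-fold higher. Birc3, an inhibitor of apoptosis, was dim in crypt and middle villus and at least 5.72-fold higher at the top. On the interferon side, Irf1 was 4.64-fold and Irf7 at least 19.4-fold higher at the top than in the crypt, and Irf9, a partner of Stat proteins, at least 4.28-fold. The 3 lower genes were Traf4 (5.74-fold), Stat5a (at least 3.84-fold) and Nfkb1 (at least 2.92-fold). The 4 inside the limit were Casp8, Nfkbiz, Oas1a and Jak3, with log2 differences of 0.56, -0.21, -0.63 and a bound of 0. Oas1a, an antiviral enzyme that interferon induces, did not follow Irf7, with 9.57, 11.33 and 8.94.

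**Figure D5:**
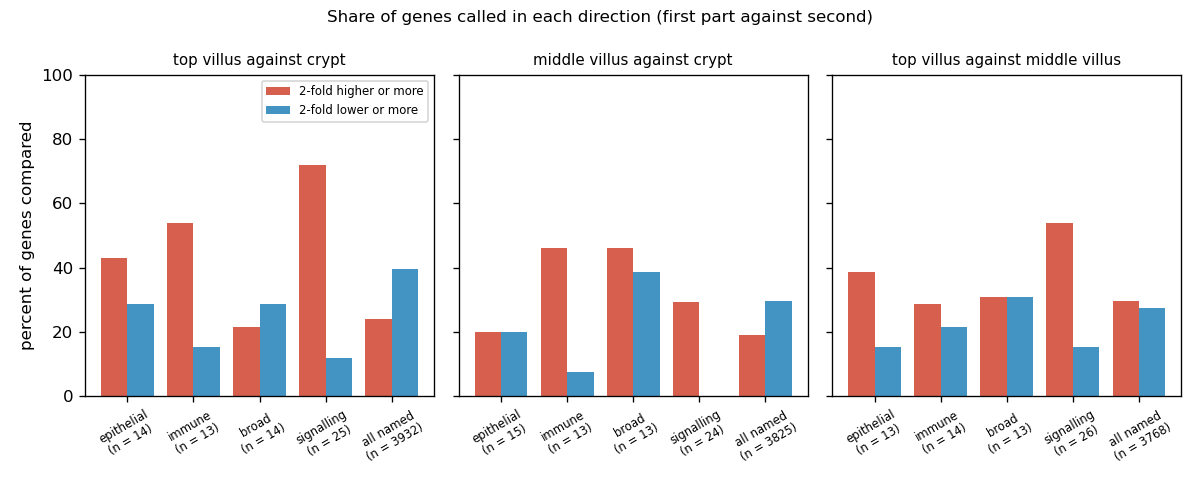
Percent of genes compared (y axis) that were at least 2-fold higher (red) or lower (blue) in the first-named part, for epithelial, immune and broad members, signalling genes and all named genes, with the number compared under each pair of bars and 1 sample per part. For top villus against crypt the red bars of immune members (53.8%) and signalling genes (72.0%) stand over that of all genes (23.9%). The lists were chosen with earlier results of these data known.

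Along the column as a whole, 44 members and 4051 named genes were placed by their steps from crypt to middle and from middle to top villus. A step counted at 2-fold, and a bound under 2-fold counted as no step. A pair dim in both parts, which was not compared, was also entered as no step and may hide a difference. Among members this holds for the first step of Cd96 and Ifnar2 and the second step of Ccl11, Ccl28 and Tnfrsf11a. No step followed by a higher top was the pattern of 9 members (20.5%, against 14.5% of all genes): Ccl20, Ccl6, Cd55, Cd96, Ifnar2, Ifngr2, Il1b, Tnfrsf1a and Tnfrsf1b. A higher middle villus with no further step was the pattern of 7 (15.9% against 6.91%): Ccl24, Ccl5, Cd151, Cd36, Cd3d, Cd7 and Il16. A middle villus higher than both neighbours was found in 5 (11.4% against 6.67%): Ccl2, Ccr10, Cd6, Cd93 and Il33. Cd82, Il4r and Tnfrsf21 were higher at both steps (6.82% against 4.44%), and Cd81 and Cxcl12 lower at both (4.55% against 4.05%). A lower middle villus with no further step was the pattern of 6 (13.6% against 15.3%), no step followed by a lower top that of 2 (4.55% against 14.8%), and Cd320 alone was lower and then higher (2.27% against 8.47%). The other 9 members had no step (20.5% against 24.8%).

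Promoters of 36 of the 47 members were in the RefSeq set of GRCr8, taken as the 250 bases before the start of each gene and searched on both strands. The loose NF-kB motif was found in 19 of 36 members, in 42.3% of all 33469 promoters and in 62.5% of the 3887 promoters of genes on the array. Among members higher at the top than in the crypt 6 of 13 held it, and among the lower ones 3 of 8. The STAT motif TTCNNNGAA was found in 5 of 36 members (Ccl24, Cd3d, Cd96, Ifnar2 and Tnfaip8l2). It was held by 7.67% of all promoters and 6.12% of those of genes on the array. The interferon response motif was found in 3 of 36 (Cd48, Tnfrsf1b and Tnfsf13b), against 3.41% and 2.91% in the same order. A match to the full kappa B motif is also counted by the loose one. These counts describe letters in a window and not binding.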

How the data were processed

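Gene expression was measured by microarray in 3 samples, grouped by the tissue part in their titles. The deposited log2 values come as 1 column per sample, with the scale read from the values themselves. The authors' normalization and the channel used (Cy3 or Cy5), not given in the sources used here, could shift a whole column against the others. Scanner files without spot names were not used. Probe symbols came from the platform annotation, and all 50 member probes were found in RefSeq by Entrez identifier, with 0 renamed. Python 3.11.15, pandas 2.3.3 and numpy 2.4.6 were used.

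Values were compared as deposited. Values in the lowest 25% of a column were set to that level, bounds were not allowed to pass 0, and a gene is the mean of its probes. The 13 empty cells of the top villus column touch no member. Each part has 1 sample, which allows no test, and percentages of all named genes stand beside the members' counts. The steps were tested on simulated data.

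The members and lists were chosen with earlier results of these data known. A member was described with its 3 values if called in any comparison, placed with the epithelium, or a chemokine or its receptor, and up to 10 others were named. Alternatives tried were median scaling and quantile normalization of the columns, a common dim level of log2 6, no filter on dim values, only probes measured throughout, 1 probe (the brightest) per gene, and a call at 1.5-fold or 4-fold.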

Additional observations from a re-analysis of the deposited data

How the results depend on the processing

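Of 72 calls of members over the 3 comparisons, none reversed under quantile normalization, the 1 setting here that could have reversed a call. Median scaling moves the columns (medians 7.81, 7.83 and 7.57) by less than 2-fold against each other. A common level of log2 6 cannot turn a sign. Without the filter a bound can only widen, so no call of a gene with 1 probe could be lost. The brightest probe can change only Cd47 and Il1b. Quantile normalization lost 6 and gained 13, median scaling lost 0 and gained 4, no detection filter lost 0 and gained 11, the common level lost 8 and gained 0, and the brightest probe lost 0 and gained 1. With no detection filter the middle villus had 24 members higher against the crypt (21.4% of all genes), and the median of immune members there was 1.97. Under quantile normalization the immune median was 2.26 at the top and 1.71 in the middle villus against the crypt. Between the villus parts the immune median of -0.17 was 0.08 under quantile normalization, 0.1 under median scaling and 0.17 with the common level. With probes measured in all 3 parts, which left 18 members, the top against the crypt gave 8 higher and 1 lower (24.2% and 34.1% of all genes), the middle villus against the crypt 5 and 2 (19.5% and 21.6%), and the villus parts 5 and 2 (20.6% and 27.2%). The medians there for top and crypt were 1.85 for epithelial and 0.94 for immune members. At 4-fold the top against the crypt gave 11 higher and 6 lower (12.1% and 22% of all genes), the middle villus 3 and 4 (6.12% and 18.7%), and the top against the middle 6 and 5 (13.8% and 13.7%). Signal near the level for dim values limits 30 of the 50 probes. No paired analysis was possible because each part has 1 sample and no test was made.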
